A study of Canis lupus familiaris with 124 samples.

Results

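VEGFA, KDR, FLT4 and TEK were followed in 8 cell lines and 9 tumor tissues of canine urinary tract carcinoma. These 4 genes, a ligand of blood vessel growth and 3 receptor kinases known from endothelium, were chosen by name from the 32183 Ensembl gene identifiers in the count tables. Their identifiers are ENSCAFG00000001938 for VEGFA, ENSCAFG00000002079 for KDR, ENSCAFG00000000482 for FLT4 and ENSCAFG00000001713 for TEK.

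Adcarc0846, Adcarc1508 and Adcarc1511.1 were derived from prostate adenocarcinoma (PAC), the lines from PAC metastases were Metadcarc1511.2 and Metadcarc1511.3, and the transitional cell carcinoma (TCC) lines were TCC0840, TCC1506 and TCC1509. Among the tissues, P2 was a primary PAC, while Ln4.2 and Ln4.3 were lymph node metastases of PAC. The 5 primary TCC tissues were P6.1 from a prostate and B7, B8, B9 and B10 from bladders of female dogs. Ln6.2 was a lymph node metastasis of TCC. In 5 pairs a line could be set beside the tissue it was derived from: Adcarc0846 and P2, Metadcarc1511.2 and Ln4.2, Metadcarc1511.3 and Ln4.3, TCC1509 and P6.1, and TCC1506 and B7. Both metastasis pairs and Adcarc1511.1 came from the same dog, so the 5 pairs stand for 4 dogs, and P6.1 and Ln6.2 also shared a dog. The 9 dogs were 6 to 11 years old and of several breeds, and the labels name no drug treatment of the cells. Cells were grown in Medium 199 with fetal calf serum and harvested before confluency, at passages 68 to 448. There were 3 libraries of 6 lines, 2 each of Adcarc0846 and TCC0840, and 1 of each tissue. The libraries of a line were flasks of that line, so their spread is that between cultures and not between dogs. RNA was extracted with different kits from cells and from tissues, so that kit and sample type cannot be told apart in any comparison of lines with tissues. By sample number the libraries also fell into 2 series, whose meaning the labels do not give. All tissues and 6 line libraries were in the first series, and 16 line libraries in the second. The second held every library of Metadcarc1511.2, Metadcarc1511.3 and TCC1509, so series and sample type cannot be told apart in their pairs.

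VEGFA is a secreted growth factor that cells release more of when oxygen is low, and it is the main signal for blood vessel growth. KDR (VEGF receptor 2) is the receptor kinase through which endothelial cells, the lining of blood vessels, answer it. FLT4 (VEGF receptor 3) binds the related ligands VEGFC and VEGFD and is best known from lymphatic endothelium, while TEK (TIE2) is the endothelial receptor for the angiopoietins, which steady or loosen mature vessels. In a carcinoma, tumor cells are a usual source of VEGFA and vessels are the usual site of the receptor kinases.

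Depth ran from 15355798 to 19935282 expected counts in libraries of the lines and from 11920463 to 18086895 in the tissues. Levels are given in CPM, counts scaled to a common library total, with TMM factors that correct these totals for composition. Single genes are compared with each other only in TPM, which also accounts for transcript length, and sums over a marker list are given in CPM to compare samples. Counting intervals are exact 95% intervals and cover counting error only. By their markers, EPCAM (an epithelial adhesion molecule) was between 26.4 and 960 CPM in the lines and between 13.4 and 1945 CPM in the tissues. It was lowest in TCC1509 among the lines and in Ln6.2 among the tissues, and the tight junction gene CLDN7 was also lowest there, at 0.151 CPM and 0.0718 CPM. Both samples came from the dog of P6.1. VWF, the clotting factor stored in endothelial cells, was between 28.95 and 1303 CPM in the tissues and between 0.403 and 2.98 CPM in the lines.

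VEGFA was present in every library. In the lines it ran from 55.4 CPM ± 6.34 (SD, n = 2) in TCC0840 to 1407 CPM ± 594 (SD, n = 3) in TCC1506, with a median over the 8 lines of 218 CPM. In the 9 tissues it ran from 42.5 CPM in Ln4.3 to 397 CPM in B7, with a median of 94.9 CPM. The sample with the most VEGFA on each side was thus 1 pair, TCC1506 and its tissue B7. Of the 22 line libraries, 19 lay above the median tissue and 7 above B7, and none lay below the lowest tissue.

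**Figure D1:**
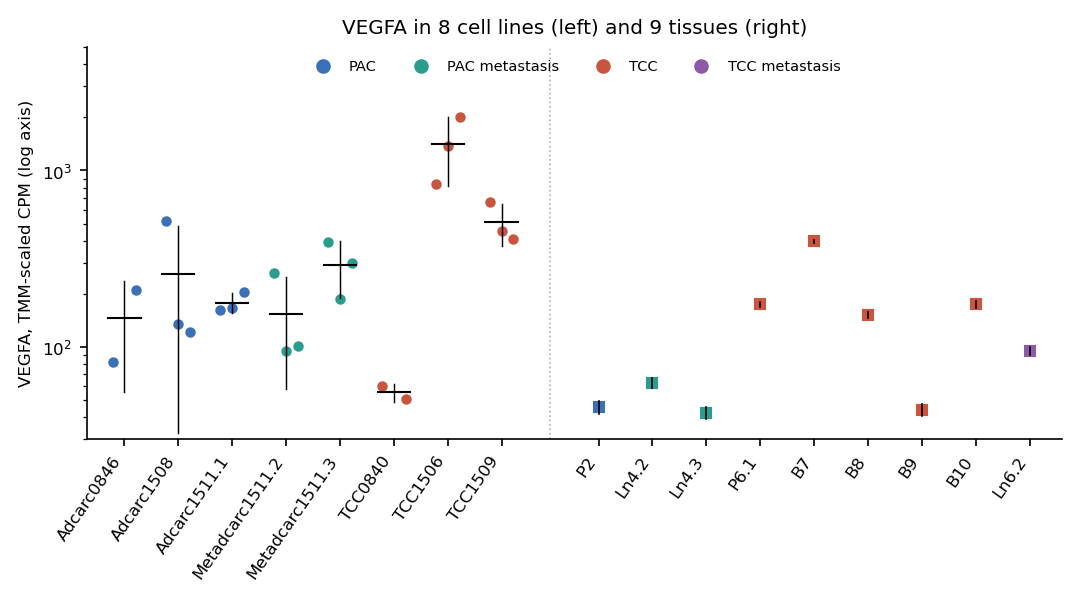
VEGFA in TMM-scaled CPM on a log axis. Circles are the libraries of a cell line with their mean and SD, squares are the single tissue libraries with exact 95% counting intervals, and colors give the tumor class. TCC1506 lies highest among the lines and B7 among the tissues, and the libraries of Adcarc1508 are spread from 122 to 518 CPM.

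The 3 libraries of TCC1506 held 834, 1367 and 2020 CPM of VEGFA, and those of TCC1509 held 661, 456 and 407 CPM. No library of TCC1509 reached the lowest of TCC1506, and among the 6 lines with less VEGFA replicate 1 of Adcarc1508 was the one library above the lowest of TCC1509. Metadcarc1511.3 had 395, 187.5 and 298 CPM, and Adcarc1508 had 518, 134 and 122 CPM. Adcarc1508 thus had 1 high library and 2 low ones, and the 5 lines from Metadcarc1511.3 down to Adcarc0846 overlapped with their neighbors in the order. Adcarc1511.1 had 163, 167 and 205 CPM, Metadcarc1511.2 had 264, 95.0 and 102 CPM, and Adcarc0846 had 82.4 and 211 CPM. TCC0840 had 59.9 and 50.9 CPM, below every library of the other lines. VEGFA therefore set both ends of the order within TCC, with the 2 highest lines and the lowest line.

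The differences of VEGFA between the 8 lines were larger than the spread between their libraries (edgeR quasi-likelihood test, adjusted p = 1.07e-05), with 4.70 on the log2 scale between TCC1506 and TCC0840. A gene counted as called when its adjusted p did not exceed 0.01 and its fold reached 2, and with this rule 65.3% of the 13916 genes tested differed between lines. A difference between lines was therefore common among all genes. VEGFA also varied more than most genes within a line. Its SD within lines was 0.694 on the log2 scale, against a median of 0.321 over the 12451 genes with a mean of at least 1 CPM in the lines, and 94.7% of these genes had a smaller SD.

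KDR was close to absent from the lines and present in all tissues. A line library held between 0 and 6 counts, and 13 of the 22 libraries held 0. In TCC1506, the line with the most, 9 counts were found over 3 libraries, or 0.173 CPM (counting interval 0.0789 to 0.327). TCC0840 and Adcarc1508 held 0 counts in all their libraries, which allows up to 0.107 CPM and 0.0609 CPM (upper ends of their counting intervals). The tissues held 227 CPM in P2, 118 CPM in Ln4.2, 113 CPM in B8, 95.05 CPM in Ln6.2, 78.0 CPM in Ln4.3, 73.0 CPM in B9, 50.7 CPM in B10, 36.1 CPM in P6.1 and 13.8 CPM in B7. Every line library was below every tissue. Among the 11684 genes with at least 10 counts in all lines' libraries or in all tissues, 2.86% were separated in this way. Only the neighbors Ln4.2 and B8, and Ln4.3 and B9, had overlapping counting intervals.

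TEK had the same separation. A line library held between 0 and 5 counts, and 6 of 22 held 0. The line with the most was Metadcarc1511.2, with 12 counts over 3 libraries, or 0.241 CPM (counting interval 0.124 to 0.420). The tissues held 138 CPM in P2, 77.8 CPM in Ln4.2, 45.3 CPM in Ln6.2, 37.25 CPM in Ln4.3, 21.7 CPM in B10, 9.31 CPM in B9, 7.87 CPM in B8, 7.13 CPM in P6.1 and 1.41 CPM in B7. The highest tissue was thus 97.7-fold above the lowest for TEK, and the 9 tissues were spread more widely than for KDR, where the same pair of samples differed 16.4-fold. In a bulk sample, fewer cells of a type and less RNA per cell cannot be told apart, which holds for every tissue value of KDR and TEK. Of the marker lists for other cell types, 2 had the same ends. The summed level of 6 fibroblast genes was 97110 CPM in P2 and 485 CPM in B7, and that of 7 leukocyte genes was 4217 CPM in P2 and 182 CPM in B7, each the highest and the lowest of the 9 tissues. The endothelial, lymphatic and mural sums were also highest in P2 but lowest in B9, and the epithelial sum was highest in B8 and lowest in Ln6.2. In the endothelial sum the lipase gene LIPG alone held 487 CPM in B7 and 82.35 CPM in B9. The endothelial genes VWF, ICAM2, CD93, USHBP1, CYYR1, FLI1 and GJA5 were each lowest in B7, while EXOC3L2 was lowest in B10 and LIPG in P2. From histology, the paper describes B7 as made up almost entirely of tumor cells. The part of these cell types in the levels of KDR and TEK was not tested.

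FLT4 differed from the other 2 receptor kinases, since it was present in every line library and overlapped with the tissues. Metadcarc1511.2 had 57.6, 82.0 and 112 CPM, Metadcarc1511.3 had 67.5, 68.6 and 74.5 CPM, and Adcarc1511.1 had 54.2, 34.7 and 36.2 CPM. These are the 3 lines of 1 dog, and they were the 3 highest of the 8. Adcarc0846 had 29.3 CPM ± 6.65 (SD, n = 2), TCC1506 had 28.2 CPM ± 2.63 (SD, n = 3) and Adcarc1508 had 26.3 CPM ± 4.04 (SD, n = 3). Their libraries overlapped, so these middle lines could not be ordered. TCC0840 had 3.92 CPM ± 0.208 (SD, n = 2) and TCC1509 had 3.61 CPM ± 0.178 (SD, n = 3). Both also overlapped, and both lay below all 9 tissues.

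**Figure D2:**
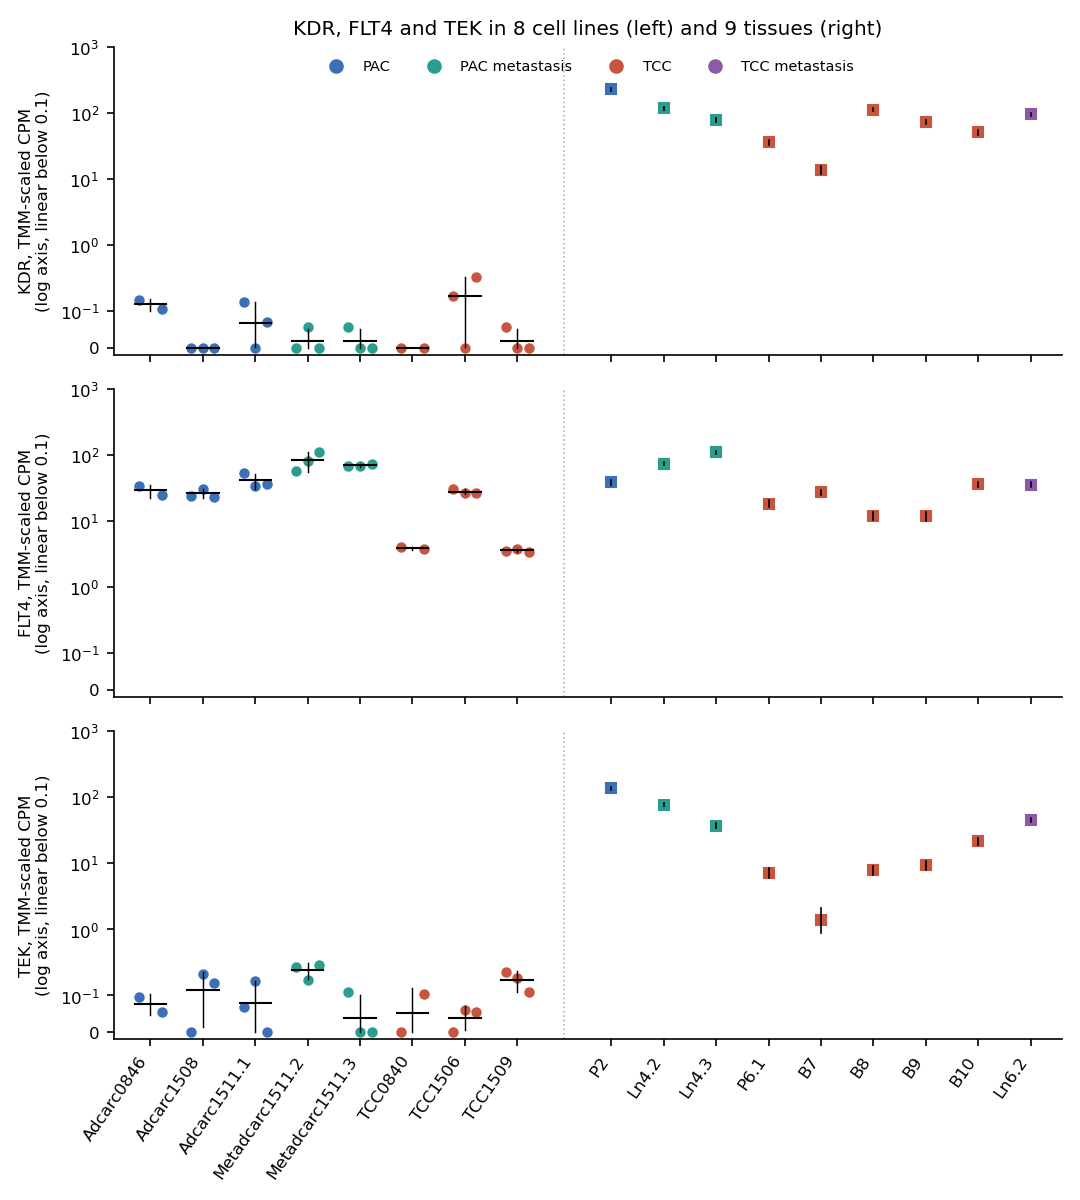
KDR, FLT4 and TEK in TMM-scaled CPM, on axes that are logarithmic above 0.1 and linear below it. Circles are cell line libraries with their mean and SD, and squares are tissues with exact 95% counting intervals. The lines lie at or near 0 for KDR and TEK, while FLT4 lies between 3.45 and 112 CPM in them.

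The tissues held FLT4 at 111 CPM in Ln4.3, 74.4 CPM in Ln4.2, 38.9 CPM in P2, 36.4 CPM in B10, 35.7 CPM in Ln6.2, 27.4 CPM in B7, 18.5 CPM in P6.1, 12.1 CPM in B8 and 11.9 CPM in B9. The metastasis tissues of the dog with the highest lines were therefore also the highest tissues. Between lines, FLT4 differed by 4.55 on the log2 scale from the lowest to the highest line (edgeR, adjusted p = 1.02e-10). Unlike VEGFA it was steady within a line, with an SD of 0.260 on the log2 scale, a value that 30.2% of the genes stayed under. RSEM divided some FLT4 reads between genes, and 61 of its 124 lane values above 0 were not whole numbers, against 26 of 124 for VEGFA, 11 of 52 for KDR and 0 of 72 for TEK.

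Several other endothelial genes were at or near 0 in the lines. USHBP1 had 0 counts in all 22 line libraries, CYYR1 had 0 in 21 of them and ICAM2 (an adhesion molecule of endothelium and leukocytes) in 19. CD93, a lectin-like receptor of endothelial cells, had 0 in 17 and at most 3 counts in any. LYVE1, the hyaluronan receptor of lymphatic endothelium, had 0 in 15 and at most 3. The lymphatic transcription factor FOXC2 was an exception, with 4.64 CPM in TCC0840 to 22.8 CPM in Adcarc1511.1. Of the 9 genes of the endothelial list with an identifier, LIPG (a lipase) was also well above 0 in every line, at 22.6 to 266 CPM. FLI1, an ETS factor of endothelial and blood cells, was at 24.0 CPM in TCC1509 and at 0 counts in each of the other 7 lines. TCC1509, which overlapped with TCC0840 at the low end of FLT4, also held EXOC3L2 at 3.21 CPM, above the tissue median of 1.65 CPM. TCC0840 held 0 counts of EXOC3L2. GJA5, a gap junction gene of arterial endothelium, was at 9.69 CPM in Adcarc1511.1, 10.9 CPM in Metadcarc1511.2 and 9.02 CPM in Metadcarc1511.3, against a tissue median of 6.53 CPM. These are the 3 lines with the most FLT4, and GJA5 was at most 0.914 CPM in the other 5. The summed level of the 9 endothelial genes was between 33.9 and 280 CPM in the lines and between 340 and 1954 CPM in the tissues. LIPG made up most of this sum at both ends of the lines, with 22.6 CPM in Metadcarc1511.3 and 250 CPM in TCC1509. In the tissues at the ends it was 82.35 CPM in B9 and 2.95 CPM in P2.

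The first question of the design was how a line differs from the tissue it came from. VEGFA was higher in the line than in its tissue in all 5 pairs, and in all 14 libraries of the paired lines. The ratio of the pooled line to its tissue was 6.88 (counting interval 6.35 to 7.47) for Metadcarc1511.3, 3.57 (3.48 to 3.66) for TCC1506 and 3.13 (2.88 to 3.42) for Adcarc0846. It was 2.91 (2.80 to 3.02) for TCC1509 and 2.36 (2.20 to 2.54) for Metadcarc1511.2. The lowest single library stood at 1.52 times its tissue, in Metadcarc1511.2, and the highest at 9.28 times, in Metadcarc1511.3. Of the 12851 genes tested, 5.93% had all 14 libraries above their tissue.

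**Figure D3:**
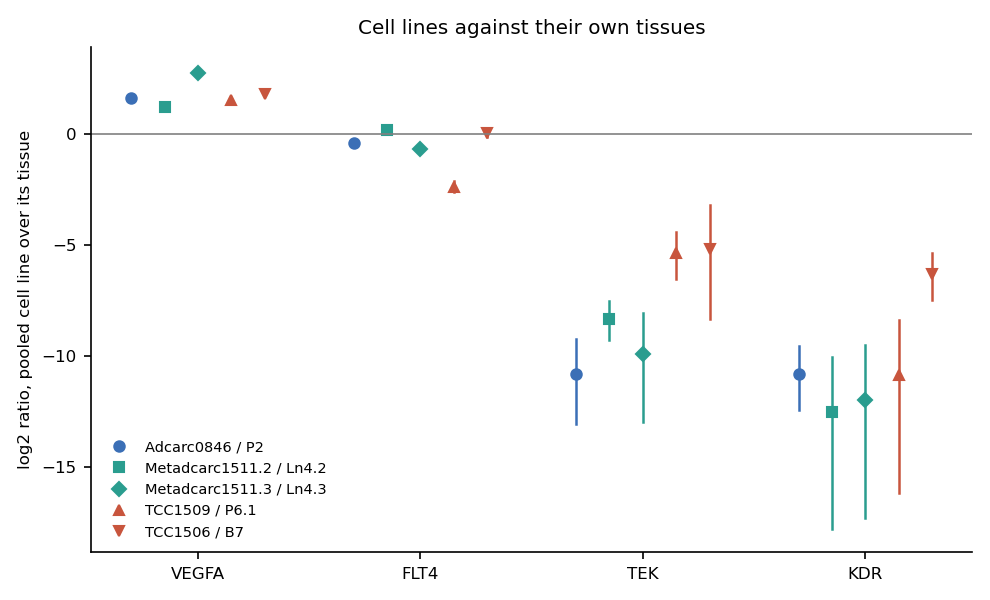
Log2 ratio of the pooled cell line to its own tissue for each of the 5 pairs, with exact 95% counting intervals. Values above 0 mean more in the line. VEGFA lies above 0 in all 5 pairs, TEK and KDR lie below -5 in all, and FLT4 lies on both sides of 0.

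Over the 5 pairs, VEGFA differed by 1.73 on the log2 scale (SE 0.290) with an adjusted p of 0.0272 (edgeR, fitted with a term for each pair). This did not pass the threshold of 0.01. Of the 12851 genes tested 1.33% were called, 166 (1.29% of all tested) as lower in the lines and 5 as higher. The estimate was larger than that of 98.3% of the genes tested. With DESeq2 on the same samples VEGFA passed, with 1.71 on the log2 scale and an adjusted p of 4.9e-06. In the PAC metastasis pairs alone it differed by 1.97 (SE 0.466, adjusted p = 0.0434 by edgeR), where 11.2% of 15123 genes were called. In the TCC pairs it differed by 1.67 (SE 0.537, adjusted p = 0.779 by edgeR), where 0.0% of 13599 genes were called by edgeR, 845 had an unadjusted p under 0.05 and DESeq2 called 489.

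KDR was lower in the line in all 5 pairs and in all 14 libraries, as were 9.49% of the genes tested. It met the 10-count minimum only through the tissues, so the direction of the tests below was fixed in advance. Against its tissue it was 1780-fold lower in Adcarc0846 (5 against 2930 counts, interval 762 to 5485). In TCC1506 it was 80.2-fold lower (9 against 226 counts, interval 41.5 to 178). Metadcarc1511.2, Metadcarc1511.3 and TCC1509 held 1 count each against 1654, 1135 and 627 in their tissues, which puts KDR 5893-fold lower (1056 to 232900), 4071-fold lower (729 to 160900) and 1878-fold lower (336 to 74310). With so few counts in the lines, the sizes cannot be ranked between these pairs. Over the 5 pairs KDR fell by 10.3 on the log2 scale (SE 1.15, adjusted p = 0.00751 by edgeR). It also passed in the PAC metastasis pairs, where it fell by 12.1 (SE 0.295, adjusted p = 0.00376) and where 9.56% of the genes tested were called as lower. In the TCC pairs the estimate was -8.12 (SE 1.69, adjusted p = 0.518), which did not pass. Fitted changes of genes with counts this low depend on the prior count and are not bounds. Without the pair of Adcarc0846, Metadcarc1511.2, Metadcarc1511.3 or TCC1509, KDR did not pass over the remaining pairs, with adjusted p between 0.0328 and 0.051, and without the pair of TCC1506 it did (0.0027). Within the tissues' own sample-number series only the pairs of Adcarc0846 and TCC1506 remained, and KDR did not pass there (-9.19, adjusted p = 0.35 by edgeR). No gene was called in that smaller fit, so it cannot decide whether the series matters for KDR.

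TEK was lower in the line in the same 5 pairs and 14 libraries. It was 1794-fold lower in Adcarc0846 (3 against 1772 counts, interval 613 to 8707) and 323-fold lower in Metadcarc1511.2 (12 against 1089 counts, interval 184 to 628). In Metadcarc1511.3 it was 972-fold lower (2 against 542 counts, interval 268 to 8046). The TCC pairs, whose tissues had less TEK, stood at 41.3-fold lower for TCC1509 (9 against 124 counts, interval 21.1 to 92.4) and 36.7-fold lower for TCC1506 (2 against 23 counts, interval 9.08 to 321). TEK fell by 8.81 on the log2 scale in the PAC metastasis pairs (SE 0.442, adjusted p = 0.00441 by edgeR). Over all 5 pairs the estimate was -8.06 (SE 1.14, adjusted p = 0.0167), and in the TCC pairs it was -5.25 (SE 0.922, adjusted p = 0.518). Both missed the threshold.

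FLT4 had no common direction in the pairs. The ratio of line to tissue was 1.14 (counting interval 1.07 to 1.225) for Metadcarc1511.2 and 1.03 (0.924 to 1.15) for TCC1506. It was 0.760 (0.684 to 0.845) for Adcarc0846, 0.635 (0.598 to 0.673) for Metadcarc1511.3 and 0.195 (0.162 to 0.234) for TCC1509. The libraries of TCC1509 lay at 0.186 to 0.205 of their tissue, and 3 of the 14 libraries lay above their tissue. Over the 5 pairs the estimate was -0.68 (SE 0.411, adjusted p = 0.326 by edgeR), with -0.27 (SE 0.260, adjusted p = 0.457) in the PAC metastasis pairs and -1.18 (SE 0.920, adjusted p = 0.908) in the TCC pairs. For these pairs the median over all genes tested lay between -0.05 and 0.00 on the log2 scale.

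Many, though not all, markers of other cell types also fell in these pairs. Of all genes, 1.29% were called as lower over the 5 pairs and 9.56% in the PAC metastasis pairs. Of the 9 endothelial genes with an identifier, 7 were tested over the 5 pairs. Of these, 2 were called as lower and none as higher, with a median of -8.10 over the 7. CD93 fell by 11.6 (SE 1.05, adjusted p = 0.00354), while VWF was at -8.10 (SE 1.299, adjusted p = 0.0242) without passing. In the PAC metastasis pairs 6 of 9 were called as lower and none as higher. Those called included VWF (-9.29, SE 0.854, adjusted p = 0.00769), CD93 (-11.3, SE 0.471, adjusted p = 0.00428) and ICAM2 (-12.7, SE 0.581, adjusted p = 0.006675). The 3 not called were EXOC3L2 (-1.93), LIPG (-0.79) and GJA5 (0.52). Over the 5 pairs LIPG was at -0.28. Of 7 leukocyte genes, 2 were called as lower over the 5 pairs and 6 in the PAC metastasis pairs. Of 6 fibroblast genes, 1 was called as lower over the 5 pairs and 4 in the PAC metastasis pairs. The median over the listed genes was -12.7 for leukocytes and -12.7 for fibroblasts over the 5 pairs. In the PAC metastasis pairs it was -13.0 and -15.3, and every estimate of both lists was negative in both comparisons. Listed genes near 0 in the lines, endothelial ones included, met the 10-count minimum only through the tissues, which fixed their negative sign in advance. The 1 mural gene with an identifier, ACTA2 (smooth muscle actin), and 1 of 2 lymphatic genes were called as lower in the PAC metastasis pairs, and none of either list over the 5 pairs. The other lymphatic gene, FOXC2, was at 0.63 in the PAC metastasis pairs and at 0.25 over the 5 pairs. None of 3 epithelial genes was called in either comparison. The part of these cell types in the values of the 4 genes was not tested.

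A further comparison brought in the TCC samples without a partner and shared the other samples with the TCC pairs. When TCC0840, TCC1506 and TCC1509 were compared with P6.1, B7, B8, B9 and B10, 0.248% of the 12882 genes were called, and none of the 4 genes was. KDR and TEK again met the count minimum only through the tissues. KDR was at -9.68 (SE 1.32) and missed the threshold, with an adjusted p of 0.0106 by edgeR. TEK was at -6.72 (SE 1.13, adjusted p = 0.0184) and FLT4 at -0.89 (SE 0.775, adjusted p = 0.617). Without TCC1506 the FLT4 estimate was -2.58 (adjusted p = 0.102), without TCC0840 it was -0.49 (0.821) and without TCC1509 -0.47 (0.843). VEGFA was at 1.78 (SE 0.881, adjusted p = 0.376), and the 3 lines lay on both sides of the tissues, with TCC0840 below 4 of the 5. Without TCC1506 the VEGFA estimate was 0.53 (adjusted p = 0.842), and without B7 KDR and TEK passed (adjusted p = 0.00585 and 0.00702). Of 6 endothelial genes tested here 1 was called as lower, which was VWF (-6.80, SE 0.838, adjusted p = 0.00972), and the median over the 6 was -5.52.

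The design also allows the tissues to be compared by tumor type. VEGFA in the 5 primary TCC tissues was 397, 175, 174, 151.5 and 44.3 CPM, and in the 3 PAC tissues it was 62.5, 45.6 and 42.5 CPM. B9 was the TCC tissue that lay within the PAC range. The difference was 2.04 on the log2 scale (SE 0.626, adjusted p = 0.0876 by edgeR) and did not pass. TEK was between 1.41 and 21.7 CPM in TCC and between 37.25 and 138 CPM in PAC, without overlap, with an estimate of -2.98 (SE 0.729, adjusted p = 0.0482). FLT4 was between 11.9 and 36.4 CPM in TCC and between 38.9 and 111 CPM in PAC, with an estimate of -1.67 (SE 0.488, adjusted p = 0.0778). The gap of FLT4 was narrow, since the lowest PAC tissue was 1.07 times the highest TCC tissue, and in plain CPM this was 0.903, so that the groups overlapped. All TCC tissues below all PAC tissues was found for 12.9% of the 13755 genes tested. KDR overlapped between the types and was at -1.15 (SE 0.599, adjusted p = 0.276). The median over all genes tested was 0.15. No gene (0.0%) was called by edgeR in this comparison, where 3333 had an unadjusted p under 0.05 and DESeq2 called 1435, TEK among them. Of the 3 PAC tissues 2 were lymph node metastases of 1 dog, in which the paper describes lymphoid and connective tissue beside the tumor cells. All 5 TCC tissues were primary tumors, and 4 of them came from the bladder. Tumor type, organ, sex and metastatic site thus cannot be told apart.

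The proportion of VEGFA to the 3 receptor kinases differed between tissues. FLT4 and TEK are receptors of other ligands, so the summed ratio compares transcripts and not VEGFA with its own receptors. In TPM, VEGFA was 23.7 in P2, where KDR was 41.4, TEK 54.6 and FLT4 12.7. In B7 VEGFA was 205, where KDR was 2.57, TEK 0.570 and FLT4 9.02. VEGFA was thus 0.218 times the summed TPM of the 3 receptor kinases in P2 and 16.8 times in B7. The ratio was 0.340 in Ln4.3, 0.415 in Ln4.2, 1.06 in Ln6.2, 1.09 in B9, 2.496 in B8, 3.24 in B10 and 5.85 in P6.1. All 3 PAC tissues had less VEGFA than receptor kinase transcript, and all TCC tissues had more. In the lines the ratio was between 2.80 in Metadcarc1511.2 and 206 in TCC1509, and FLT4 made up at least 94.1% of the summed receptor TPM in each line. TPM of VEGFA depends on which of its 3 annotated transcripts RSEM assigned reads to, and the mean transcript length was between 2994 in B10 and 3588 in B8.

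**Figure D4:**
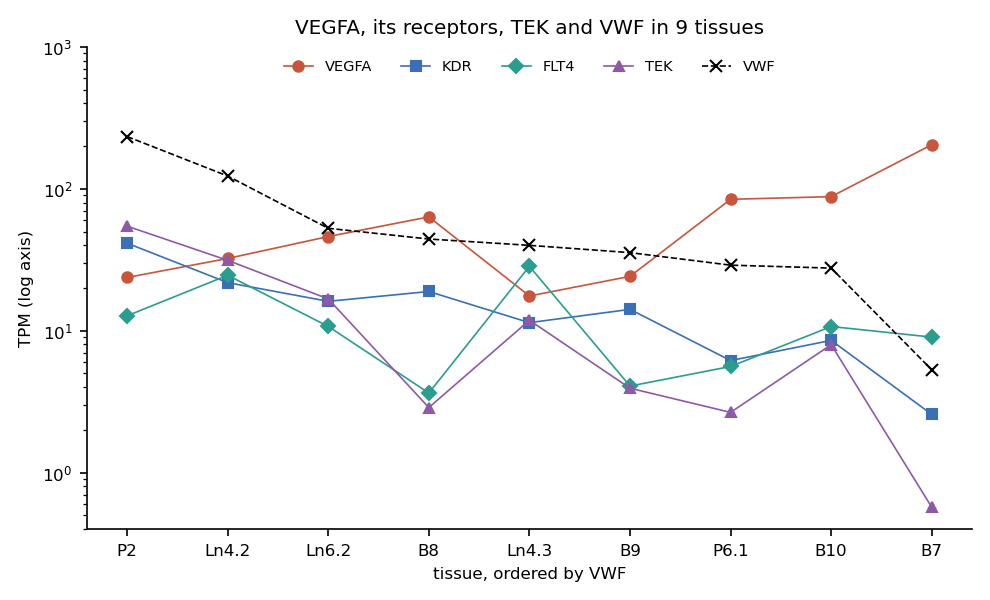
VEGFA, KDR, FLT4, TEK and the endothelial marker VWF in TPM on a log axis in the 9 tissues, ordered from the highest to the lowest VWF. Each point is 1 library. KDR and TEK are highest in P2 and lowest in B7 as VWF is, and VEGFA is highest in B7.

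The tissues of 1 dog were not alike either. Ln6.2 had 2.64 times the KDR of P6.1 (counting interval 2.39 to 2.90), 6.35 times its TEK (5.23 to 7.76) and 1.93 times its FLT4 (1.67 to 2.22), while P6.1 had 1.84 times the VEGFA of Ln6.2 (1.73 to 1.97). Ln4.2 had 2.09 times the TEK (1.88 to 2.32), 1.515 times the KDR (1.40 to 1.64) and 1.47 times the VEGFA (1.32 to 1.63) of Ln4.3. FLT4 went the other way and was 1.485 times as high in Ln4.3 (1.37 to 1.61). These intervals hold for 1 library against 1 library and say nothing of the spread between pieces of a tumor.

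Across the 9 tissues, endothelial genes were among those whose levels ran most like KDR and TEK. Among 1064 other genes with a symbol and at least 1 CPM, the genes most like KDR were TMEM47 (Pearson r = 0.962 on log2 CPM), VWF (0.954) and CD93 (0.937), and those most like TEK were USHBP1 (0.995), FLI1 (0.989) and ELMO1 (0.971). TEK itself had an r of 0.844 with KDR. FLT4 was less like most of these genes. It had an r of 0.189 with KDR, 0.600 with TEK, 0.321 with VWF and 0.388 with CD93. With ICAM2, however, its r was 0.788, against 0.691 for KDR and 0.938 for TEK. The genes most like FLT4 were PALD1 (0.960), a phosphatase-like protein described in endothelium, BAIAP3 (0.936) and BCL2 (0.932), an inhibitor of apoptosis. VEGFA had an r of -0.773 with KDR, -0.742 with TEK and -0.759 with VWF. Not every gene of the endothelial list ran this way, since LIPG was highest in B7 (487 CPM), where VEGFA was highest, and lowest in P2 (2.95 CPM). The genes nearest to VEGFA were KMT5A (0.952), a histone methyltransferase, MREG (0.909) and UTP11 (0.865). The r values describe 9 libraries from 7 dogs that share depth and tumor content, and the genes with a symbol are mostly a list that the study picked from these cell lines by their response to drugs.

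Over the 8 pooled lines, the genes most like VEGFA were WNT5B (r = 0.939), a secreted WNT ligand, WDR47 (0.920) and OGDHL (0.898), among 921 genes with a symbol. VEGFA and FLT4 had an r of 0.104 there. TCC1509 stood next to the top of the order for VEGFA and, beside TCC0840, at the low end for FLT4. These points are 8 lines from 6 dogs.

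Other signals of vessel growth were read from fixed lists, for which identifiers were found for 12 of 16 genes. Over the 5 pairs 9 of them were tested and none was called, with a median of -2.83. In the PAC metastasis pairs 5 of 12 were called as lower and none as higher, where 9.56% of all genes tested were called as lower. Among those called was THBS4, a matrix thrombospondin (-12.6, SE 0.414, adjusted p = 0.00376 by edgeR). It had at most 1 count in a line library, so only the tissues brought it into the test. The integrin subunits ITGAV and ITGA5 were at -0.35 (adjusted p = 0.246) and -4.88 (adjusted p = 0.0566) and did not pass. Between lines 7 of 9 tested genes differed, beside 65.3% of all genes, and ITGA5 ran from 2.51 CPM in TCC0840 to 1137 CPM in TCC1509. Of the oxygen sensing list only ARNT2, a partner of the hypoxia-inducible factors, had an identifier. It was at 0 in Metadcarc1511.2 and at 8.73 CPM in TCC0840, and it was lower in the PAC metastasis pairs by the test.

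Genes that low oxygen induces are of interest beside VEGFA, and 4 of 16 had an identifier. ERO1A, which drives disulfide bond formation in the endoplasmic reticulum, was between 63.8 and 303 CPM in the tissues and between 185 and 1377 CPM in the lines. It rose in the PAC metastasis pairs by 2.97 (SE 0.235, adjusted p = 0.00644), where it was the 1 of 4 called. PLOD2 (a collagen lysyl hydroxylase) was at -2.93 (adjusted p = 0.0622), LOX (lysyl oxidase) at 1.47 (SE 1.18, adjusted p = 0.375) and PFKL (a glycolytic enzyme) at -0.74 (adjusted p = 0.0917). Over the 5 pairs and in the TCC pairs none of the 4 was called. The 4 genes thus had no common direction, and VEGFA and ERO1A were the ones whose estimate over the 5 pairs was above 1 on the log2 scale, with ERO1A at 1.36 (SE 0.615, adjusted p = 0.210).

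The lines of the dog with 3 lines allow the metastasis lines to be compared with Adcarc1511.1. FLT4 was between 57.6 and 112 CPM in the 6 metastasis libraries and between 34.7 and 54.2 CPM in the 3 of Adcarc1511.1, without overlap, as for 10.3% of the 13916 genes tested. The difference was 0.84 on the log2 scale (SE 0.202, adjusted p = 0.00448 by edgeR), which was under the fold of 2 that a call needed, and 10.4% of genes were called. Without replicate 1 FLT4 was called (1.21, adjusted p = 0.00114), and without replicate 2 or 3 its adjusted p was 0.125 or 0.0931. VEGFA was at 0.22 (SE 0.446, adjusted p = 0.764), with overlapping libraries. KDR and TEK had too few counts to be tested here.

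The last comparison concerned the passage. In each of the 6 lines with 3 libraries, replicate 1 had the lowest passage, 68 to 98, and the other 2 had higher ones. VEGFA was lower in both later libraries than in the earliest in 4 lines. The mean difference was -2.02 on the log2 scale in Adcarc1508, -1.43 in Metadcarc1511.2, -0.74 in Metadcarc1511.3 and -0.62 in TCC1509. In TCC1506 both later libraries were higher, by 1.00 on average, and in Adcarc1511.1 they were higher by 0.18. Over the 6 lines the estimate was -0.73 (SE 0.274, adjusted p = 0.06005 by edgeR with the line as a covariate), which did not pass, while 2.69% of the 10828 genes tested were called. Without TCC1506 it was -1.002 with an adjusted p of 0.00669 and passed, and without Adcarc1508 it was -0.41 (adjusted p = 0.296). Replicate 3 of TCC1506 belongs by its sample number to another series of libraries than replicates 1 and 2. Within the series of these 2, VEGFA was 0.71 higher on the log2 scale in the later library.

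**Figure D5:**
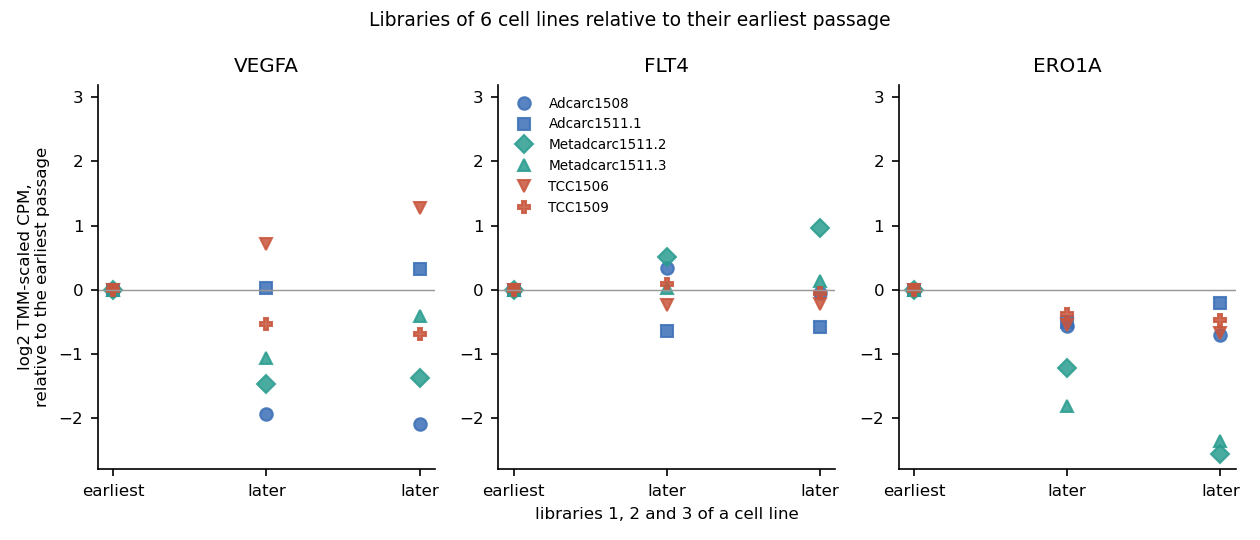
Log2 difference of VEGFA, FLT4 and ERO1A from the earliest library of the same cell line, for the 6 cell lines with 3 libraries. Each point is 1 library and the first library is at 0. VEGFA lies below 0 in 4 lines and above 0 in TCC1506 and Adcarc1511.1, and ERO1A lies below 0 in all 6.

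ERO1A was lower in all 12 later libraries than in the earliest of their line and fell by 1.04 on the log2 scale (SE 0.226, adjusted p = 0.0043 by edgeR). Its values were 2583, 1109 and 439 CPM in Metadcarc1511.2 and 1700, 482 and 331 CPM in Metadcarc1511.3. In TCC1506, where VEGFA was higher at later passage, ERO1A was 265, 180 and 166 CPM. The other 3 hypoxia genes were not called, with PLOD2 at -0.58 (adjusted p = 0.0649), LOX at 0.56 (adjusted p = 0.191) and PFKL at 0.21 (adjusted p = 0.166). FLT4 was at -0.01 (SE 0.138, adjusted p = 0.957), and it was lower in both later libraries of TCC1506 and Adcarc1511.1 and higher in both of Metadcarc1511.2 and Metadcarc1511.3. The 2 lines with 2 libraries were outside this fit. In Adcarc0846 VEGFA was 2.56 times as high at the later passage, and in TCC0840 it was 0.850 times as high.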

How the data were processed

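Libraries of canine cell lines and tumor tissues were made with the NEBNext Ultra RNA kit and sequenced over 4 lanes. Per the labels, the authors trimmed reads with Trimmomatic 0.36, mapped them with STAR 2.5.3 to CanFam and quantified genes with RSEM 1.3.0. The deposited tables give expected counts, TPM and FPKM per lane, with transcript lengths. The expected counts deposited by the authors are not normalized, and the TPM values were normalized by the authors for length and depth. FPKM was not used. No strand setting is given in the sources used here, so overlapping and antisense genes cannot be told apart.

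For each of 31 libraries the expected counts of its 4 lanes were added up and rounded. A gene was tested with at least 10 counts in all samples of a group, by edgeR 4.0.16 quasi-likelihood tests with TMM factors (R 4.3.3). Genes near 0 in the lines entered tests against tissues only through the tissues, which fixed their direction in advance. Libraries of a line were pooled against tissues. Genes with a p adjusted by Benjamini-Hochberg up to 0.01 and a fold from 2 upwards were called. DESeq2 1.42.0, RLE normalization, no count minimum, no pair covariate and left-out samples were alternatives. Scripts were tested on simulated data. Likeness used log2 of CPM plus 0.5.

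The 4 genes and all gene lists were chosen with earlier results of these data known. Symbols came from the study's supplement for 1120 of 32183 identifiers, 1097 of them picked there by drug response of these lines. Named genes are the 4 members, the 3 most alike genes and up to 4 genes per list with the highest mean tissue TPM, and further marker genes were named after their values were seen. A gene that this rule names is not reported here. The lists were VEGF ligands (1 of 5 with an identifier), VEGF receptors (2 of 5), angiopoietin-TIE (1 of 6), other angiogenic signals, oxygen sensing, hypoxia targets, and markers of endothelial, lymphatic endothelial, mural, fibroblast, leukocyte and epithelial cells. In the first 3 lists the genes with an identifier are the 4 members.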

Additional observations from a re-analysis of the deposited data

Results flagged for a closer look

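Of 10 groups examined for a sample far from the others, 3 held one. How often chance alone marks a group was not tested, and the groups share the same samples. VEGFA in TCC1506, at 1407 CPM, lay far above the other cell lines. VEGFA in B7, at 396.8 CPM, lay far above the other tissues. KDR in P2, at 227.4 CPM, lay far above the other tissues.

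The change of VEGFA from the earliest to the later libraries went in opposite directions between lines. It was 0.996 on the log2 scale in TCC1506 and 0.18 in Adcarc1511.1, and it was -2.018 in Adcarc1508, -1.425 in Metadcarc1511.2, -0.739 in Metadcarc1511.3 and -0.618 in TCC1509. For FLT4 it was -0.227 in TCC1506 and -0.614 in Adcarc1511.1, and it was 0.732 in Metadcarc1511.2 and 0.081 in Metadcarc1511.3. These differences between lines were not tested.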

How the results depend on the processing

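DESeq2 called more genes than edgeR, with 1873 in the 5 pairs, 4841 in the PAC metastasis pairs, 489 in the TCC pairs, 699 for TCC lines against TCC tissues and 1435 for TCC against PAC tissues. With it VEGFA passed in the 5 pairs (1.71) and the PAC metastasis pairs (1.94), KDR in the TCC pairs (-8.265) and for TCC lines against tissues (-9.81), and TEK in the 5 pairs (-8.08), the TCC pairs (-5.325), TCC lines against tissues (-6.81) and TCC against PAC tissues (-3.05). Without a count minimum 306 genes were called in the 5 pairs, 63 between tissue types and 679 by passage, and FLT4 by passage turned to 0.008. RLE normalization gave 3 genes between tissue types. Without the pair covariate 435 genes were called and TEK passed (-8.90). Within the tissues' number series only the pairs of Adcarc0846 and TCC1506 remained, where 0 genes were called, with 755 at an unadjusted p under 0.05. KDR did not pass there (-9.19). With 1 library a line, TEK passed with replicate 1 (-7.985) and KDR did not with replicate 3 (-9.99). In plain CPM, a scale chosen after seeing the data, the lowest PAC tissue was 0.903 of the highest TCC tissue for FLT4. The cause was not tested.

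Leaving out 1 sample, line, pair or replicate number moved the calls to between 22 and 591 in the 5 pairs, 0 and 222 for TCC lines against tissues, 0 and 11 between tissue types, 4078 and 7888 between lines, 390 and 1349 for metastasis lines and 122 and 430 by passage. The estimate ran from -0.29 to 0.47 for VEGFA and 0.64 to 1.21 for FLT4 in metastasis lines, where without replicate 1 VEGFA reversed and FLT4 was called. For FLT4 in TCC lines against tissues it ran from -2.58 to -0.47. By passage it ran from -1.002 to -0.41 for VEGFA and -0.14 to 0.13 for FLT4. For KDR it ran from -11.33 to -9.82 in the 5 pairs and -11.83 to -9.21 for TCC lines, and for TEK from -7.57 to -6.13 for TCC lines.

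Deviations of same-numbered libraries of different lines correlated by -0.234 to 0.793 (median 0.147) and those of other numbers by -0.665 to 0.323 (median -0.0569). Not every same-numbered pair deviated together, so the numbers were not taken as pairs, although replicate 1 has the lowest passage in 6 lines. With a replicate block 9721 genes differed between lines and 1631 in metastasis lines.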
